A study of Mus musculus with 10 samples.

Results

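The comparison described here is that of Polr1a null with wild-type telencephalon, the front of the embryonic brain from which cortex and basal ganglia develop, in mouse embryos at day 12 of gestation. Its members are the 4 samples whose titles begin with Polr_2048, out of 10 in the series: 2 labelled wt for the Polr genotype (wild types 1 and 2) and 2 labelled null (null 1 and null 2). All 14796 named genes of the deposited table were tested. The other 6 samples, 3 wild types and 3 with the missense change C1559F, have titles that begin with Polr_2138. They are called the missense set, and they entered the fit to share its estimate of the spread. The sources used here do not give zygosity, Cre driver, litter or strain, and nothing says whether the 4 samples came from separate litters, so p-values measure only the spread between these samples. Values are the deposited log2 levels, which behave like log2 CPM with a small offset and are not scaled for gene length, so they are compared between samples and not between genes.

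The Polr1a protein is the catalytic core's largest part in RNA polymerase I, the enzyme that transcribes the precursor of the large ribosomal RNAs in the nucleolus. Impaired ribosome production is known to free ribosomal proteins that bind Mdm2, which stabilises p53. At this age the ventral telencephalon, the ganglionic eminences, makes GABAergic neurons under homeobox factors such as the Dlx and Nkx2-1 proteins, while the cortical hem at the dorsal midline secretes Wnt and Bmp proteins.

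The back-transformed values of the 10 samples sum to between 1000453 and 1000891, so sequencing depth is unknown. Across genes, the 6 pairs among the 4 samples correlated at a Pearson r of 0.955 to 0.960, and no pair was a duplicate. Each group held 1 sample with high and 1 with low levels of Y-linked genes: Ddx3y was at 0.14 in wild type 1 and 0.27 in null 2, against 5.73 in wild type 2 and 5.60 in null 1. Emx1, a homeobox factor that marks the dorsal telencephalon, was at 5.59 or above in all 4 samples.

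Polr1a itself was at 5.38 in both wild types, at 4.99 in null 1 and at 4.82 in null 2. Both null samples lay below both wild types, a difference of -0.48 (SE 0.20, limma adjusted p = 0.563), which did not pass the threshold. With 2 samples against 2, the 2-sided exact permutation p of 0.333 is as small as this design can reach. The labels do not say which part of the gene the null allele removes, so its summed reads are a weak check of the label. Of the 12 RNA polymerase I subunits measured, Polr1a was the 1 with an unadjusted p under 0.05. Cd3eap, another subunit specific to the enzyme, was at 4.29 and 4.13 in wild type and at 4.38 and 4.91 in null samples (difference 0.44, limma adjusted p = 0.599). The second-largest subunit Polr1b had a difference of 0.15 (SE 0.15).

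Among the genes that passed the test, those of the ventral telencephalon made up most of what fell in the null samples, and few rose. In limma 24 of 14796 genes, or 0.162%, passed an adjusted p of 0.05: 19 fell (0.128%) and 5 rose (0.0338%). Of these, 21 are named genes, 17 lower and 4 higher, and 3 are predicted gene models. Over all genes the balance was the other way. An unadjusted p under 0.05 was reached by 745 genes that were higher (5.04%) and by 486 that were lower (3.28%). Both null samples lay above both wild types in 3390 (22.9%) and below in 2192 (14.8%). With only 2 samples a group the fit borrows its spread from all 10 samples. Fitted on the 4 samples alone, limma called 0 genes, with 1101 at an unadjusted p under 0.05. In bulk tissue, fewer cells of a type and less RNA per cell cannot be told apart.

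The calls rested on single samples to different degrees. Without null 2 limma called 2 genes, without wild type 2 it called 7, without wild type 1 it called 12 and without null 1 it called 23. Leaving out a sample of the other set, which enters through the spread alone, gave 8 calls without its wild type 1, 12 without its wild type 3, 14 without missense 2, and 16 to 21 otherwise. Dlx1 passed in all 10 such fits, with adjusted p from 0.00128 to 0.00266, and Arl4d in 9, failing without null 2 (limma adjusted p = 0.0756). Gad2, Dlx2 and Lhx6 passed in 8 and failed without wild type 2 and without null 2, where the highest adjusted p was 0.126. Of the other called genes reported here, Wnt8b and Tmem132c passed in 6, Dlx5 in 5, Rpl15 in 4, and Grik3 and Slc32a1 in 3. Gbx1, Lhx8, Nkx2-1 and Sox8 passed in 1, and Dpf1, Stac2 and Nr6a1 in 0, with adjusted p of up to 0.265 among these genes. Every difference of the 21 genes kept its direction in every one of these fits.

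**Figure D1:**
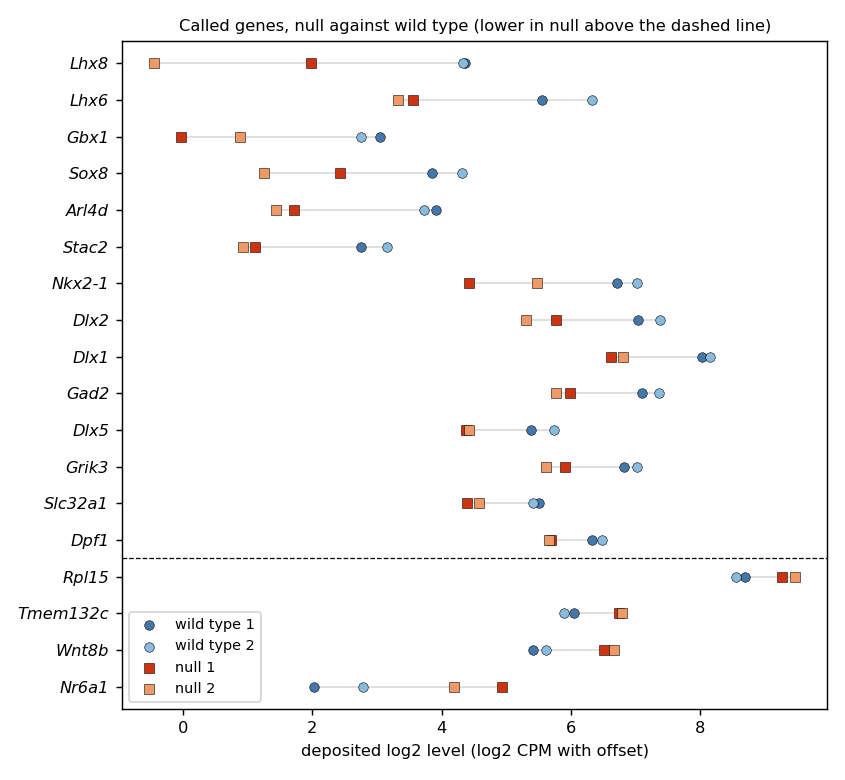
Deposited log2 level (horizontal axis) of the called named genes reported here in each of the 4 samples; circles are wild types and squares null samples, 1 point per sample. For each gene above the dashed line both null samples lie below both wild types, and for the 4 genes below it both lie above.

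Dlx1 and Dlx2 are neighbouring homeobox genes on chromosome 2 that drive GABAergic differentiation. Dlx1 was at 8.04 and 8.16 in the wild types and at 6.62 and 6.81 in the null samples. It fell by 1.38 on the log2 scale, a level 2.61-fold lower (SE 0.0977, limma adjusted p = 0.000369), the smallest p of all genes. Dlx2 was at 7.05 and 7.39 against 5.77 and 5.30, a level 3.20-fold lower (limma adjusted p = 0.0128). For both genes the null values lay more than 1 log2 unit under the lower wild type. Dlx5, a paralogue acting downstream of them, fell from 5.38 and 5.74 to 4.38 and 4.42 (difference -1.16, SE 0.167, limma adjusted p = 0.0277). Dlx6, the partner of Dlx5, was at 4.21 and 4.69 against 3.10 and 3.95 and did not pass (difference -0.93, SE 0.283).

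The promoters of 4 of the called genes are shown. Dlx1 and Dlx2 were taken as the leading pair of the genes that fell. Lhx6 was taken as the ventral gene with the largest fall among those with promoter motifs. Wnt8b was taken as the gene that rose and whose promoter held motif matches. Each is the 250 bases before the annotated start, 5′ to 3′ on the gene's strand, from RefSeq on GRCm38.p6, a build other than the GRCm39 of the submitters' processing notes. Capitals mark matches to 6 motifs searched on both strands: the homeodomain core TAATTA, the proneural E-box CAGCTG, the Nkx2-1 motifs CACTTGA and CACTTAA, and the Tcf motifs CTTTGAT and CTTTGAA. The Dlx1 window lies at chr2:71529195-71529444 (plus strand), that of Dlx2 at chr2:71546755-71547004 (minus), those of Lhx6 at chr2:36105409-36105658 and chr2:36104061-36104310 (minus), chosen from 3 because the third held no match, and that of Wnt8b at chr19:44493222-44493471 (plus).
Dlx1: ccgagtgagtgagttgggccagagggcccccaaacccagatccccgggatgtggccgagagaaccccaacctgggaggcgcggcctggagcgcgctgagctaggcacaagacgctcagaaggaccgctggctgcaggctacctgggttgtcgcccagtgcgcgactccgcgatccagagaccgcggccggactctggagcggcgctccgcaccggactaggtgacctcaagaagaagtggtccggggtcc
Dlx2: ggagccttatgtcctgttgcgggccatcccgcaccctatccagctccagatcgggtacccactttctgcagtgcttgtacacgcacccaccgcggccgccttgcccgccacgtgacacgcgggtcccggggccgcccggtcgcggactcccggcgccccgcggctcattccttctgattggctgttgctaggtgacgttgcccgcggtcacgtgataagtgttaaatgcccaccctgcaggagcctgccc
Lhx6, upstream start: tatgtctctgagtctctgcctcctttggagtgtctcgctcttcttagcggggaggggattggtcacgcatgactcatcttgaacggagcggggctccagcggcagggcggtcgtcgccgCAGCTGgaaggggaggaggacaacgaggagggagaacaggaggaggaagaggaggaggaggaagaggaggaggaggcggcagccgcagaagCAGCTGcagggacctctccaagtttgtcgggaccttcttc
Lhx6, downstream start: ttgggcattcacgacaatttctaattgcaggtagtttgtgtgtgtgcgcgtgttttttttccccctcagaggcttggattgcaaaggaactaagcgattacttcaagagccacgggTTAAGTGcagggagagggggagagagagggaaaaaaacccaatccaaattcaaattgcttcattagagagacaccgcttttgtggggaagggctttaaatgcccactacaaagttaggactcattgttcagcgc
Wnt8b: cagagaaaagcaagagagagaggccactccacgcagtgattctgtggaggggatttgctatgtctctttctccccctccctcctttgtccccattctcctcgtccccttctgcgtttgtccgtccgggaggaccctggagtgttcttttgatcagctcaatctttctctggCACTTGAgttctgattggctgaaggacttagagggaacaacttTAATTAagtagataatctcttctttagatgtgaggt

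The Dlx1 and Dlx2 windows held none of the 6 motifs and were GC-rich, at 68.0% and 66.4% against a median of 52.4% over all promoter entries. The upstream Lhx6 window held CAGCTG at 131 to 126 and at 40 to 35 bases before the start, and the downstream one held CACTTAA on the other strand at 134 to 128 bases. The Wnt8b window held CACTTGA at 79 to 73 and TAATTA at 36 to 31 bases before the start. Of 32851 windows of the same length, 13% held CAGCTG, 4.84% TAATTA, 2.68% CACTTGA, 2.10% CACTTAA, 3.21% CTTTGAT and 4.46% CTTTGAA. Promoters were matched for 15 of the 21 called named genes, with 18 windows. Of these 18 windows 1 held CAGCTG, 1 TAATTA, 1 CACTTGA and 1 CACTTAA, and 0 held CTTTGAT or CTTTGAA. The windows with these matches are among those shown, and the other windows held none. A match is a description of the letters and not a binding site.

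Lhx8, Lhx6 and Gbx1, genes of the medial ganglionic eminence and the basal forebrain, had the 3 largest falls of the 17 named genes. Nkx2-1, the factor that specifies this region, was at 6.71 and 7.02 in the wild types and at 4.43 and 5.48 in the null samples (difference -1.91, SE 0.302, limma adjusted p = 0.0443). Lhx6, which Nkx2-1 induces in migrating interneurons, went from 5.56 and 6.33 to 3.56 and 3.33, a level 5.65-fold lower (limma adjusted p = 0.0128). Lhx8, its relative in cholinergic neurons of the basal forebrain, was at 4.36 and 4.33 against 1.97 and -0.45 (difference -3.58, SE 0.578, limma adjusted p = 0.0464). The 2 null samples differed by more than 2 log2 units for Lhx8, and null 2 was the lower by far, so that the difference was -2.37 without null 2 (limma adjusted p = 0.0717) and -4.80 without null 1. For Nkx2-1 the order was opposite, with null 1 the lower. Gbx1, a homeobox gene of the basal forebrain, was at 3.05 and 2.75 against -0.04 and 0.88 (difference -2.48, SE 0.380, limma adjusted p = 0.0394).

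The list of ventral transcription factors had 37 members, all measured, with a median difference of -0.59 where the median of all genes tested was 0.03. Of these 9 fell and 0 rose in limma over all genes (0.128% of all genes fell). At an unadjusted p under 0.05, 19 were lower and 3 higher, against 3.28% and 5.04% of all genes. In 23 members both null samples lay below both wild types, against 14.8% of all genes, and in 3 both lay above, against 22.9%. This list, like those below, was chosen with earlier results of these data known, so its counts are a description and not separate support. The called members include Dlx1, Dlx2, Dlx5, Lhx6, Lhx8, Nkx2-1 and Gbx1. Members near the threshold were Vax1, at 4.66 and 5.02 against 2.60 and 2.36 (limma adjusted p = 0.0700), and Sp9, at 6.13 and 6.30 against 5.38 and 5.42 (limma adjusted p = 0.0947).

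The lateral ganglionic eminence, source of striatal neurons, was represented by Gsx2, Isl1, Meis2 and Foxp1. Gsx2, a progenitor homeobox factor, was at 4.01 and 4.21 against 2.94 and 1.74 (difference -1.77, limma adjusted p = 0.130), and its paralogue Gsx1 at 3.33 and 2.99 against 2.92 and 3.24. The groups did not overlap for Gsx2 and overlapped for Gsx1. Isl1, of striatal projection neurons, had a difference of -0.88 (limma adjusted p = 0.164) and Meis2 of -0.80 (limma adjusted p = 0.206). In the other direction lay Foxp2, at 5.91 and 5.84 against 6.53 and 6.62 (difference 0.70, limma adjusted p = 0.0947), and Foxp1, with a difference of 0.36 (limma adjusted p = 0.567). Ebf1, Sp8 and Satb1 had differences of 0.20, -0.18 and -0.05.

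Of the genes that make and package GABA, Gad2 and Slc32a1 fell. Gad2, an enzyme of GABA synthesis, was at 7.10 and 7.37 in the wild types and at 5.99 and 5.78 in the null samples, 2.55-fold lower (SE 0.148 log2 units, limma adjusted p = 0.00996). Slc32a1, the vesicular GABA transporter, fell from 5.51 and 5.41 to 4.40 and 4.58 (difference -0.97, limma adjusted p = 0.0292). Gad1, the other synthesis enzyme, was more spread, at 4.99 and 5.93 against 5.05 and 4.12, and its groups overlapped (limma adjusted p = 0.531). Abat, which breaks GABA down, had a difference of -0.80 (limma adjusted p = 0.128).

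Arl4d, a small GTPase of the Arf family, was the called gene of the second smallest p. It was at 3.91 and 3.73 in the wild types and at 1.71 and 1.44 in the null samples, 4.72-fold lower (SE 0.234 log2 units, limma adjusted p = 0.00951). Across the list of 19 measured GABA and ventral neuron genes the median difference was -0.48; 3 fell (Arl4d, Gad2 and Slc32a1), 0 rose, and 9 had both null samples below both wild types, against 0.128% of all genes that fell and 14.8% with both below. The list, with Arl4d in it, was chosen with earlier results of these data known, so these counts are a description and not separate support. Its median was -0.30 without wild type 2 and -0.32 without null 1. Cxcr4, a chemokine receptor of migrating interneurons, was the member at an unadjusted p under 0.05 in the other direction, at 4.90 and 4.63 against 5.21 and 5.36 (difference 0.52, limma adjusted p = 0.409). Neuropeptide genes of interneurons were low at this age and uneven: Npy had a difference of -1.40 (SE 0.568, limma adjusted p = 0.535) and Sst of -0.48 (SE 0.367).

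Grik3, a kainate receptor subunit, was at 6.83 and 7.02 against 5.91 and 5.62 (difference -1.16, limma adjusted p = 0.0277). Stac2, an adaptor protein, was at 2.76 and 3.15 against 1.12 and 0.92 (difference -1.94, SE 0.301, limma adjusted p = 0.0426). Dpf1, a subunit of the neuronal chromatin-remodelling BAF complex, was at 6.33 and 6.48 against 5.69 and 5.66 (difference -0.72, limma adjusted p = 0.0464). Each of these 3 genes had groups that did not overlap. Sox8, a SoxE factor of glial progenitors, fell from 3.85 and 4.32 to 2.42 and 1.25 (difference -2.25, SE 0.352, limma adjusted p = 0.0426). Its relative Sox10, of oligodendrocytes and neural crest, was at 1.80 and at the file's floor of -3.16 in the wild types and at the floor and 1.83 in the null samples. Olig2, a bHLH factor of the same lineage, had a difference of -0.59 (limma adjusted p = 0.505), and Nkx2-2 of 1.02 (limma adjusted p = 0.421).

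Retinoid genes, 13 measured, had a median difference of 0.09. In limma 1 fell (0.128% of all genes fell) and 0 rose, and the member that fell is not reported here. Aldh1a3, a retinoic acid synthesis enzyme of the ventral forebrain, was at 1.67 and 2.01 against 1.12 and 0.56 (limma adjusted p = 0.753), and the receptors Rara and Rxra had differences of 0.21 and 0.09.

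**Figure D2:**
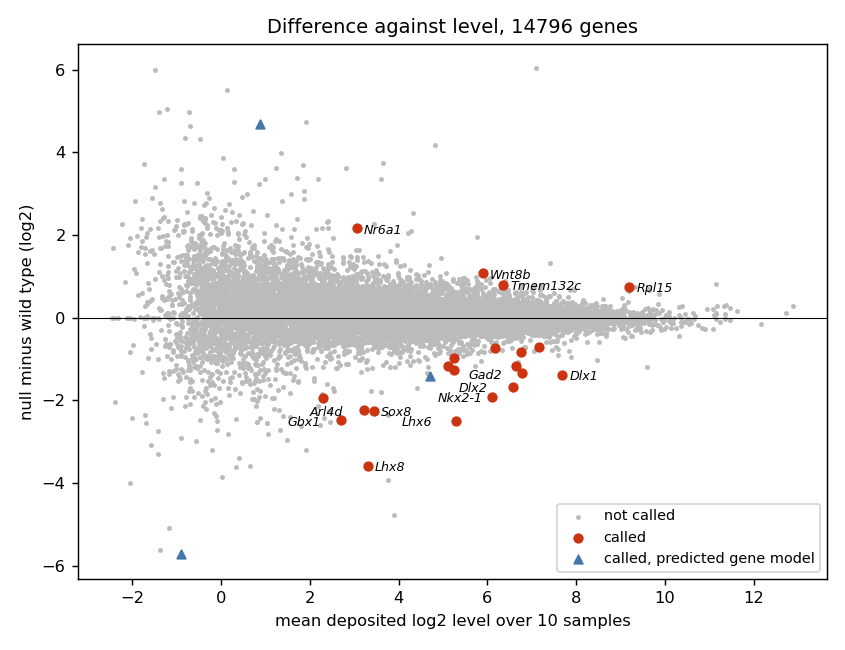
Difference between null and wild-type means (vertical axis, log2) against the mean deposited log2 level over 10 samples, 1 point per gene; grey points were not called, red points are the 21 called named genes and blue triangles the 3 called gene models. The named genes that fell span mean levels from that of Stac2 to that of Dlx1, and the spread of grey points is widest at low levels.

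Wnt ligands of the dorsal midline lay on the other side. Wnt8b, a ligand of the cortical hem, was at 5.42 and 5.61 in the wild types and at 6.51 and 6.67 in the null samples, 2.11-fold higher (SE 0.144 log2 units, limma adjusted p = 0.0220). Wnt3a, the hem ligand that sustains the hippocampal field, was at 3.12 and 2.57 against 3.90 and 4.01 (difference 1.11, SE 0.256, limma adjusted p = 0.165). Wnt3 was at 3.30 in both wild types against 4.28 and 4.19 (limma adjusted p = 0.132), and Wnt5a had a difference of 0.73 (limma adjusted p = 0.348). The R-spondins, secreted proteins that strengthen Wnt signalling, had differences of 0.83 for Rspo3 (limma adjusted p = 0.0597), 0.84 for Rspo1 and 2.18 for Rspo2, whose wild types were apart at 1.88 and -0.24. Wnt7a, a ligand of cortical progenitors, was lower, at 5.21 and 5.23 against 4.70 and 4.29 (difference -0.73, limma adjusted p = 0.164), and Wnt5b had a difference of -0.02 (SE 0.305).

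Of 15 listed Wnt ligands and R-spondins 14 were measured, with a median difference of 0.83. In limma 1 rose (0.0338% of all genes rose). At an unadjusted p under 0.05 there were 10 higher and 1 lower, against 5.04% and 3.28% of all genes. In 11 both null samples lay above both wild types, against 22.9% of all genes, and in 1 both lay below, against 14.8%. Axin2, a feedback inhibitor and common readout of Wnt signalling, was at 6.90 and 6.46 against 7.30 and 7.32 (difference 0.63, limma adjusted p = 0.165). Lef1, a Wnt transcription factor, was at 5.98 and 5.99 against 6.45 and 6.46 (limma adjusted p = 0.190). Tnfrsf19 was at 7.16 and 7.18 against 7.72 and 7.68 (limma adjusted p = 0.0665), and the Wnt inhibitor Apcdd1 at 5.57 and 5.84 against 6.34 and 6.45 (limma adjusted p = 0.0888). For Lef1 and Tnfrsf19 the 2 samples of each group lay within 0.05 of each other. Of 21 feedback and target genes 0 were called by limma, and the median was 0.47. At an unadjusted p under 0.05 there were 10 higher and 1 lower, against 5.04% and 3.28% of all genes. The lower one was Sfrp1, a secreted Wnt antagonist (difference -0.31), and the cell-cycle gene Ccnd1 had a difference of -0.03 (SE 0.136).

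Bmp genes gave smaller differences. Bmp6 was at 2.54 and 1.85 against 3.48 and 3.84 (difference 1.46, SE 0.302, limma adjusted p = 0.128), and Bmp7 at 4.69 and 4.88 against 5.53 and 5.34 (limma adjusted p = 0.325). Bmp4 had a difference of 0.64 (limma adjusted p = 0.665). Msx1 and Msx2, homeobox targets of Bmp signalling, had differences of 0.96 and 1.04, and Lmx1a, the roof-plate and hem factor, of 1.25 with null 1 at 3.94 and null 2 at 5.20. Id4, another class of Bmp-responsive gene, was lower, at 8.72 and 8.86 against 8.46 and 8.33 (limma adjusted p = 0.178). Of the 24 Bmp genes 0 were called by limma, and the median was 0.37. At an unadjusted p under 0.05 there were 11 higher and 1 lower, against 5.04% and 3.28% of all genes. Noggin (Nog) and chordin (Chrd), secreted Bmp inhibitors, had differences of -0.26 and 0.13.

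**Figure D3:**
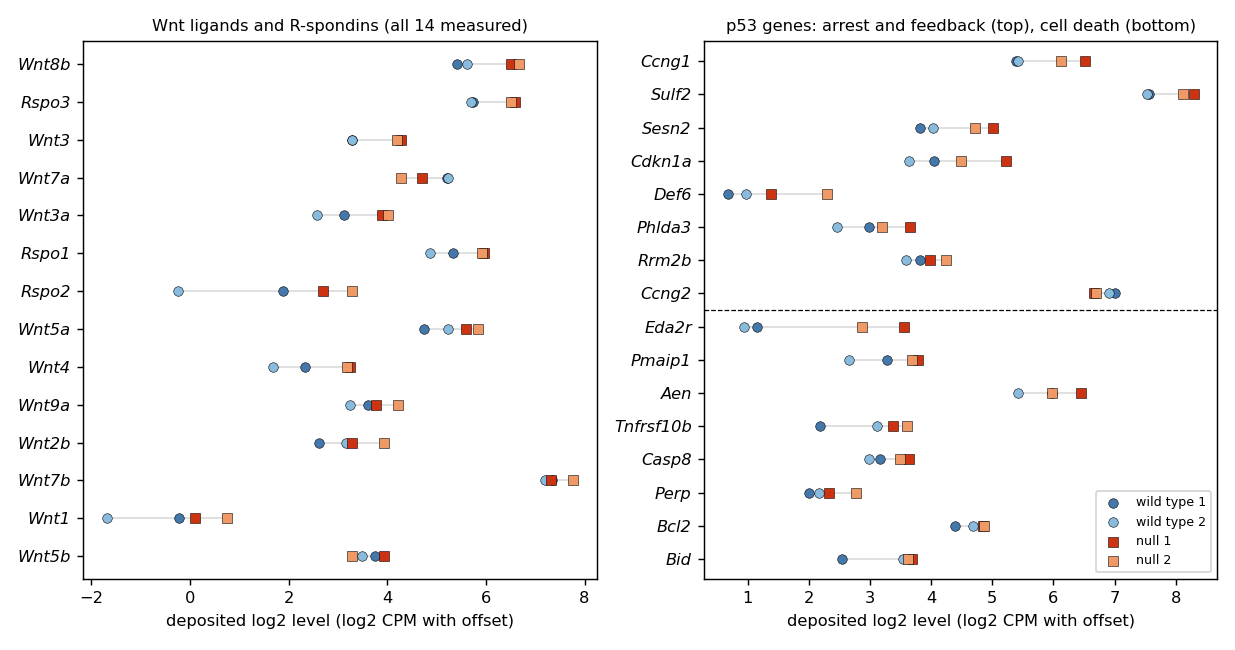
Deposited log2 level (horizontal axis) in the 4 samples of all 14 measured Wnt ligands and R-spondins (left) and of 8 members of small p from each of the 2 p53 lists (right), 1 point per sample. Both null squares lie above both wild-type circles for Wnt8b, Rspo3, Wnt3, Ccng1 and Eda2r, and below them for Wnt7a.

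Signals that pattern the ventral side and the rostral midline gave differences on both sides of 0. Shh, the ligand of the ventral midline, was at 4.43 and 4.6 in the wild types and at 3.78 and 5.0 in the null samples, so the null values lay on both sides. Its receptor and target Ptch1 had a difference of 0.04 (SE 0.114), and Gli1, the usual transcriptional readout, was at 4.91 and 4.50 against 5.10 and 5.0 (difference 0.34, SE 0.184). Of 13 Sonic hedgehog genes 0 were called by limma. At an unadjusted p under 0.05 there were 0 higher and 0 lower, against 5.04% and 3.28% of all genes. Differences were above 0 in 10 members and below 0 in 3. In 5 both null samples lay above both wild types, against 22.9% of all genes, and in 0 both lay below, against 14.8%. Fgf ligands of the rostral midline differed between replicates: Fgf8 was at 2.14 and 1.58 against 2.70 and 1.71, and Fgf17 at 3.94 and 3.97 against 4.31 and 2.10. Fgf9 was at 2.58 and 2.71 against 1.27 and 0.95 (difference -1.54, limma adjusted p = 0.394), and the Fgf target Dusp6 had a difference of 0.25 (SE 0.154).

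Of the cortical patterning factors, Pax6 had a difference of 0.15, Lhx2 of 0.10, Emx1 of -0.09 and Emx2 of 0.22. The median of the 15 factors was 0.10 (0.05 without wild type 1 and 0.06 without null 2), and 0 were called by limma. Hes5, a Notch target, had a difference of -0.45 (limma adjusted p = 0.438) and Dmrt3, of the dorsomedial cortex, of 0.50 (limma adjusted p = 0.503). Among 16 neural progenitor genes 4 were lower at an unadjusted p under 0.05 (3.28% of all genes), all of which encode Sox factors. At that p 2 were higher (5.04% of all genes), the Notch pathway genes Jag1 (difference 0.36) and Notch2 (0.29). Sox21 was at 6.73 and 6.75 against 6.14 and 5.78 (difference -0.78, limma adjusted p = 0.104), Sox2 at 8.49 and 8.43 against 8.09 and 8.03 (difference -0.40, limma adjusted p = 0.236), and Sox1 and Sox3 had differences of -0.58 and -0.38. Nes and Vim, filament genes of progenitors, had differences of -0.17 and -0.01.

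Neuronal genes were lower by small amounts. Nsg2, a vesicle protein of young neurons, was at 8.35 and 8.33 against 7.66 and 7.85 (difference -0.58, limma adjusted p = 0.0947), and Elavl3, a neuronal RNA-binding protein, at 8.58 and 8.61 against 8.18 and 8.27 (difference -0.37, SE 0.0985). Of 32 pan-neuronal genes 0 were called by limma. An unadjusted p under 0.05 was reached by 11, all lower, against 3.28% of all genes. In 21 members both null samples lay below both wild types, against 14.8% of all genes. The median was -0.24, and it was -0.15 without null 1 and -0.36 without null 2. Among 26 genes of intermediate progenitors and cortical neurons the median was -0.23 (-0.14 without wild type 2). Of these 7 were lower at an unadjusted p under 0.05, against 3.28% of all genes. Bcl11b, of deep-layer cortical and striatal neurons, was at 7.54 and 7.86 against 7.02 and 6.56 (limma adjusted p = 0.0566). Neurod6, of cortical projection neurons, had a difference of -1.16 (limma adjusted p = 0.343), and Eomes, of intermediate progenitors, of -0.39 (limma adjusted p = 0.697). Other genes of adjusted p between 0.05 and 0.10 were lower Fam65b (-0.86), the adaptor Shb (-0.72), Acss1, of mitochondrial acetyl-CoA synthesis (-1.06), and Plxna2, a semaphorin receptor (-0.94).

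Of the lists of other regions and cell types, that of the eye field and hypothalamus had a median under 0 and the others had medians above that of all genes, and none held a called gene. Thalamus and midbrain factors, 23 measured, had a median difference of 1.39, with 0 called by limma. At an unadjusted p under 0.05 there were 13, all higher, against 5.04% of all genes. The median was 0.94 against all 5 wild types of the series, 1.05 with a pseudocount of 1 and 1.08 with low genes left out. With 1 sample left out it ranged from 0.94 to 1.68. Irx2 was at 2.91 and 2.53 against 4.19 and 4.24 (limma adjusted p = 0.0757), and Tal2, of midbrain GABA neurons, at 3.20 and 2.14 against 4.43 and 5.47. Barhl1 was at 0.16 and -1.06 against 2.25 and 4.80. The wild types differed from each other here: the list's median shift from the wild-type mean was 0.34 in wild type 1 and -0.34 in wild type 2, against 0.98 in null 1 and 1.68 in null 2. Foxa2, of the midbrain floor plate, was at the floor in both wild types and in null 1. Back-transformed levels of the list summed to 276 and 231 in the wild types and to 428 and 592 in the null samples. Choroid plexus genes had a median of 0.69, with 8 of 17 higher at an unadjusted p under 0.05 (5.04% of all genes). Ttr, the thyroxine carrier of the choroid plexus, was at 5.50 and 5.47 against 6.08 and 6.27 (limma adjusted p = 0.581). Folr1, its folate receptor, was at 0.57 and 0.21 against 1.68 and 2.28 (limma adjusted p = 0.334). The list's median was 0.35 against all 5 wild types of the series. Summed choroid plexus levels were 183 and 154 against 243 and 279.

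Microglia and macrophage genes were higher in all 25 measured members, and in 22 both null samples lay above both wild types, against 22.9% of all genes. Csf1r, the receptor that microglia need to survive, was at 3.75 and 3.96 in the wild types and at 4.81 and 4.80 in the null samples (difference 0.95, limma adjusted p = 0.0688). Mrc1, of border macrophages, was at 4.06 and 4.05 against 5.07 and 5.13 (limma adjusted p = 0.0947). The list's median was 0.95, and 0 members were called by limma. An unadjusted p under 0.05 was reached by 13, all higher, against 5.04% of all genes. P2ry12, a defining gene of microglia, was at the floor in both wild types and at 0.89 and -0.02 in the null samples. Summed levels of the list were 215 and 177 against 353 and 352.

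Genes of mesenchyme, neural crest and meninges, 29 measured, had a median of 0.59 and sums of 2582 and 2193 against 3234 and 4254. At an unadjusted p under 0.05 there were 12 higher, against 5.04% of all genes. Collagen Col1a1 was at 9.23 and 9.03 against 9.49 and 10.17 (limma adjusted p = 0.431). Surface and olfactory epithelium genes, 19 measured, had a median of 0.82, with 5 higher at that p and sums of 59.2 and 69.4 against 99.8 and 111. With a pseudocount of 1 added the epithelium median was 0.45. Trp63, the master regulator of stratified epithelium, was at 0.94 and 1.18 against 2.61 and 2.32 (limma adjusted p = 0.412). Endothelial genes had a median of 0.27, with 3 of 26 higher at an unadjusted p under 0.05 (5.04% of all genes). Erythroid genes had one of 0.33, with 6 of 24 higher at that p. Their sums overlapped, 8821 and 5625 against 7668 and 9116. The endothelial median was 0.10 without null 2 and 0.52 without null 1, and the erythroid one 0.06 without wild type 2, 0.62 without wild type 1 and 0.55 without null 1. Cajal-Retzius genes, of early cortical neurons that leave the hem, had a median of 0.40 with 4 of 14 higher at that p. Reln, their secreted product, had a difference of 0.01, while Ebf3, a transcription factor of these cells, was at 5.53 and 5.10 against 5.88 and 6.30 (difference 0.78, SE 0.206) and Ndnf at 3.15 and 3.48 against 5.30 and 5.54 (limma adjusted p = 0.178). In the eye field and hypothalamus list, 19 measured, the median was -0.20, with differences above 0 in 7 members and below 0 in 12. At an unadjusted p under 0.05 there were 3 higher and 0 lower, against 5.04% and 3.28% of all genes. The list's median was -0.02 without wild type 1 and 0.21 without null 1. The part of these cell types in the lower ventral genes and the higher Wnt and Bmp genes was not tested.

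**Figure D4:**
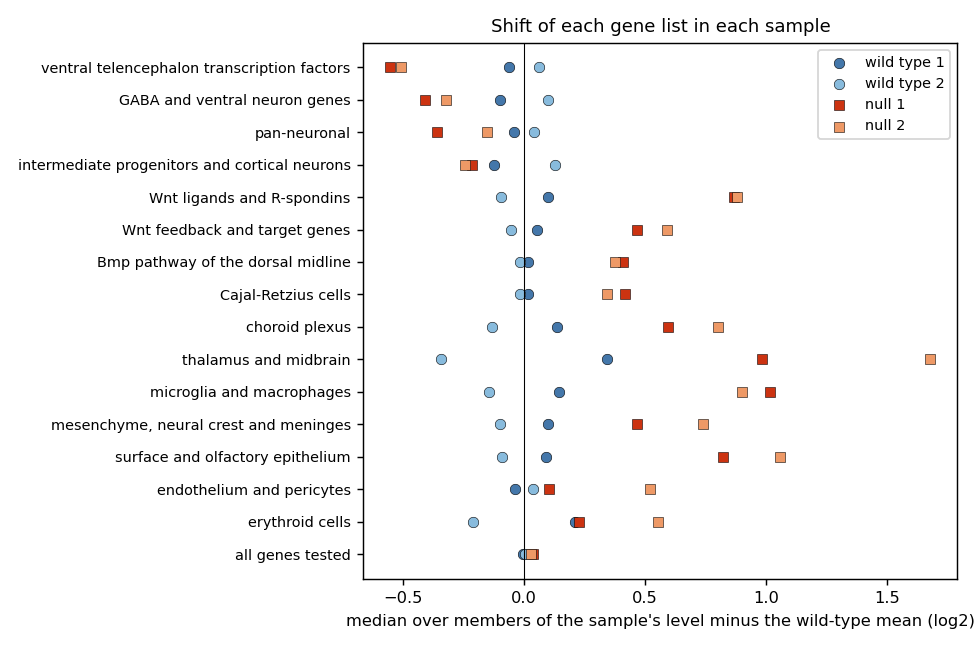
Median over each list's members of the sample's level minus the wild-type mean (horizontal axis, log2), 1 point per sample; circles are wild types and squares null samples. Ventral and GABA lists lie left of the wild types in both null samples, and Wnt, Bmp, microglia and thalamus lists right of them.

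Genes downstream of p53 were compared because of the link between ribosome production and p53. Ccng1, a p53 target cyclin, was at 5.39 and 5.41 in the wild types and at 6.51 and 6.13 in the null samples (difference 0.92, SE 0.163, limma adjusted p = 0.0688). Cdkn1a, the p53-induced cell-cycle inhibitor, was at 4.04 and 3.64 against 5.23 and 4.50 (difference 1.02, SE 0.272, limma adjusted p = 0.254), and Sesn2 had a difference of 0.94 (limma adjusted p = 0.209). Phlda3, an Akt inhibitor induced by p53, was at 2.99 and 2.46 against 3.66 and 3.20 (limma adjusted p = 0.572). Null 1 was above null 2 for each of these. Mdm2, the p53 ligase and itself a target, had a difference of -0.10 (SE 0.136), and Trp53, the p53 gene, of -0.05 (SE 0.121). Of 31 arrest, repair and feedback genes 0 were called by limma. An unadjusted p under 0.05 was reached by 6, all higher, against 5.04% of all genes. The median was 0.14, with values of 0.08 without null 1, 0.23 without null 2 and 0.25 without wild type 1.

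Among 18 death genes Eda2r, a p53-induced receptor, was at 1.16 and 0.94 against 3.56 and 2.87 (difference 2.17, SE 0.418, limma adjusted p = 0.101). Pmaip1, which encodes the BH3 protein Noxa, had a difference of 0.76 (limma adjusted p = 0.493), and Bax, its effector, of -0.10 (SE 0.179). Bbc3, which encodes Puma, was at 3.60 and 2.84 against 3.09 and 3.52. Of the 18 death genes 0 were called by limma. An unadjusted p under 0.05 was reached by 5, of which 4 were higher (5.04% of all genes) and 1 lower (3.28%). The median was 0.12, with values of 0.19 without null 2, 0.22 without null 1 and 0.23 without wild type 1.

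The lists of ribosome genes had medians near that of all genes. Of 40 ribosome biogenesis factors 0 were called by limma and 0 had an unadjusted p under 0.05 in either direction, with differences from -0.34 to 0.33. The median was 0.04. Nucleophosmin (Npm1) had a difference of 0.15 and Dkc1, of small nucleolar RNA particles, of 0.30. Of 11 RNA polymerase I factors, Ttf1, which ends rRNA transcription, had a difference of 0.63 (limma adjusted p = 0.456) and Taf1d of 1.16 (limma adjusted p = 0.468), while Ubtf and Rrn3 had differences of -0.15 and -0.01. Among 79 cytosolic ribosomal protein genes the median was -0.05, and Rpl15, which rose, was the 1 called (0.0338% of all genes rose). In 11 both null samples lay above both wild types, against 22.9% of all genes, and in 1 both lay below, against 14.8%. The wild types lay apart here, with median shifts from their mean of 0.23 in wild type 1 and -0.23 in wild type 2. The shifts were -0.15 in null 1 and 0.03 in null 2. With 1 sample left out the list's median ranged from -0.30 to 0.19.

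Rpl15, of the large ribosomal subunit, was at 8.70 and 8.56 in the wild types and at 9.27 and 9.48 in the null samples (difference 0.74, SE 0.107, limma adjusted p = 0.0277). Its wild types of the missense set averaged 9.38, above both wild types of the null comparison, and with all 5 wild types as controls the difference was 0.29 (limma adjusted p = 0.706). The predicted gene model Gm10020, chosen after values were seen, was at 3.48 and 2.91 against -1.91 and -3.16, the last at the floor, and was called lower (limma adjusted p = 0.0277). Its transcript is 99.673% identical to that of Rpl15 over 612 bases, so reads may be split between them. Summed with Gm10020 and Rpl15-ps2, the Rpl15 difference was 0.70. Gm7334, also chosen after values were seen, was at the floor in both wild types and at 0.69 and 2.35 in the null samples (limma adjusted p = 0.0128), and its 756-base transcript is 100% identical to part of Btg3. Btg3 alone had a difference of 0.21 and, with Gm7334 added, of 0.38. The third gene model called, Gm13889, also chosen after values were seen, was at 5.29 and 5.13 against 3.79 and 3.80 (limma adjusted p = 0.0128).

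Other genes that rose were Tmem132c and Nr6a1. Tmem132c, of a family of neural transmembrane proteins, was at 6.04 and 5.89 against 6.75 and 6.79 (difference 0.80, SE 0.105, limma adjusted p = 0.0198). Nr6a1, an orphan nuclear receptor of early embryos, was at 2.02 and 2.79 against 4.94 and 4.19, 4.48-fold higher (limma adjusted p = 0.0491). Lin28b, another gene of early developmental timing, was at 4.79 and 4.93 against 5.28 and 5.30 (limma adjusted p = 0.414). Of 11 timing genes 1 rose (0.0338% of all genes rose) and the median was 0.22, with values of 0.12 without null 1, 0.41 without null 2 and 0.37 against all 5 wild types. Sepp1, which carries selenium in plasma, had a difference of 0.80 (limma adjusted p = 0.0753).

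The cell cycle, Atf4 and cholesterol lists lay near the median of all genes. The medians were -0.03 for 22 S phase genes, -0.04 for 24 G2 and mitosis genes, 0.07 for 20 Atf4 targets, 0.12 for 18 hypoxia genes (0.21 without wild type 1) and -0.03 for 22 cholesterol synthesis genes. Kif11, a mitotic motor, was at 8.03 and 7.99 against 7.75 and 7.58 (limma adjusted p = 0.344), and Mki67, a proliferation marker, had a difference of -0.06. The glucose transporter Slc2a3 was at 5.12 and 4.62 against 5.62 and 5.78 (difference 0.83, SE 0.219), and Jun at 6.92 and 6.96 against 6.48 and 6.52 (limma adjusted p = 0.158). The list of 17 immediate early and heat shock genes that holds Jun had a median of 0.29. In 9 members both null samples lay above both wild types, against 22.9% of all genes, and in 3 both lay below, against 14.8%. At an unadjusted p under 0.05 there were 1 higher and 2 lower, against 5.04% and 3.28% of all genes. The list's median was 0.17 after quantile normalisation and 0.08 with low genes left out. In the genes of mitochondrial DNA, 13 measured, the median was 0.24 (0.16 after quantile normalisation), with 9 having both null samples above both wild types, against 22.9% of all genes.

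**Figure D5:**
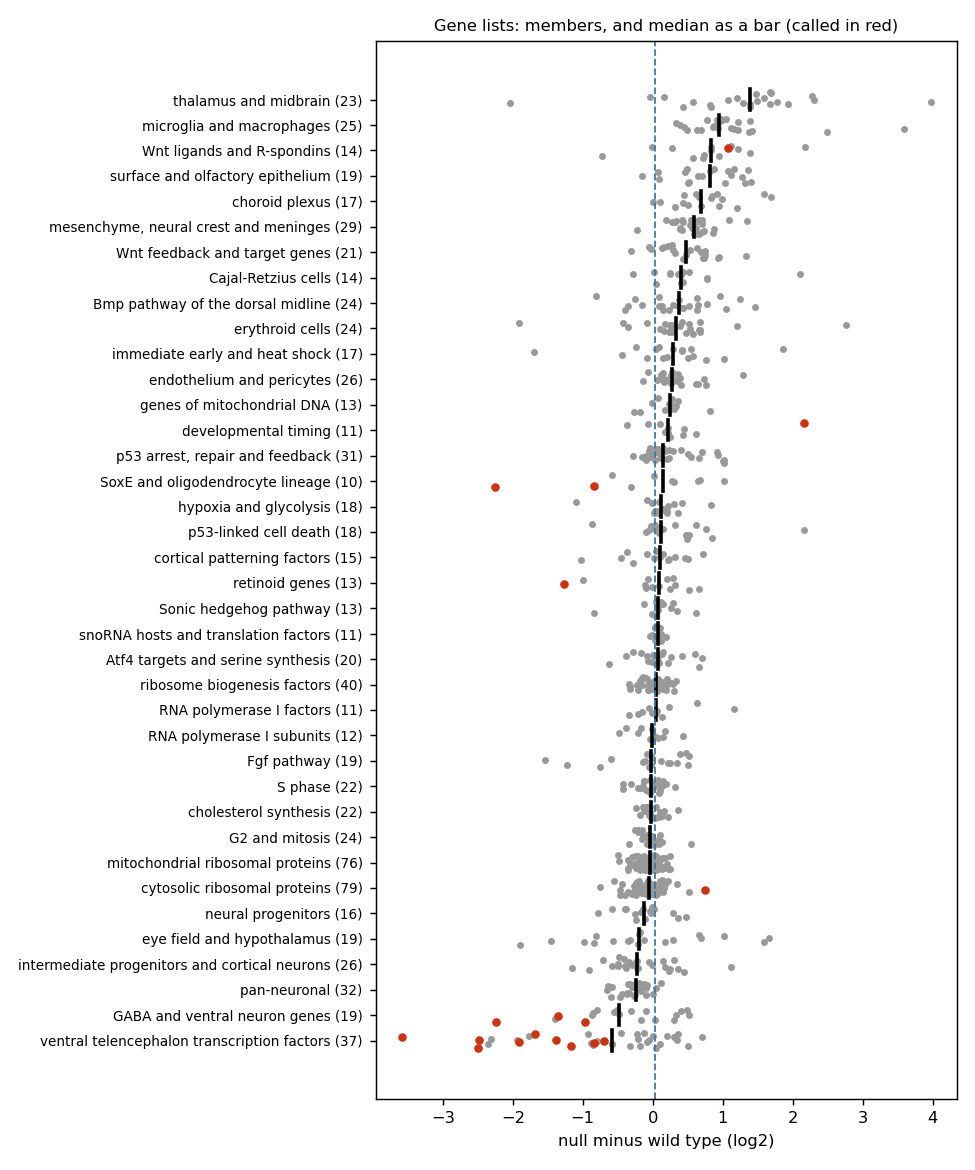
Difference between null and wild-type means (horizontal axis, log2) of each member of 38 gene lists, with the list's median as a black bar, called members in red, and the median of all genes as a dashed line; the number of members measured is in brackets. Called members lie mostly in the ventral and GABA lists at the bottom, and the thalamus and midbrain list has the highest median, 1.39.

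The null change was set against the change in the missense samples, each measured against its own wild types. The 21 called named genes were chosen on the null contrast and so lean towards large null differences. Of these, 19 had the same sign in missense, 10 had an unadjusted p under 0.05 there in limma, and the missense difference was smaller in all 21. The matching shares over all genes are not given here, so these counts are a description and not a measure of likeness between the mutants. The test of the difference between both changes called 2 genes in limma (0.0135% of all tested). Dlx1 was at -1.38 in null and -0.32 in missense, a difference of -1.06 (SE 0.126, limma adjusted p = 0.0322). With 1 sample left out this difference ranged from -1.16 to -0.97. Of the fits that left out a sample of the missense set, only that without its wild type 2 passed for Dlx1. The second, Rpl34, another ribosomal protein gene, differed through its low level in missense: the null difference was -0.47, with groups at 8.55 and 8.45 against 8.32 and 7.75, and the missense difference was -3.76 (limma adjusted p = 0.00425 for the difference between them). Rpl34 was chosen after values were seen. For Lhx6 the changes were -2.50 and -0.13 (limma adjusted p = 0.225 for the difference), and for Gad2 -1.35 and -0.25 (limma adjusted p = 0.287). The Wnt8b changes were 1.08 and 0.63, and those of Ccng1 0.92 and 0.97. Cdkn1a differed by 1.02 in null and by 1.0 in missense, and Eda2r by 2.17 and 2.63. For Lhx6, Gad2, Wnt8b, Ccng1, Cdkn1a and Eda2r the difference between the mutants did not pass.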

How the data were processed

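Total RNA of 10 mouse telencephalon samples had been sequenced. The file holds 1 value per gene and sample. Its header gives no unit; the values fit log2 CPM with an offset made before the authors deposited the file, since back-transformed columns have near-equal sums and a common floor of -3.16. The submitters' processing notes name GRCm39; which aligner, counter, annotation and CPM tool were used is not given in the sources used here. No counts or depth could be recovered, so no counting intervals are given. One row without a gene name (1 of 14797) was left out.

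The 4 groups were fitted together with limma 3.58.1 (R 4.3.3, eBayes with trend, 6 residual and 4.83 prior degrees of freedom), 2-sided, with Benjamini-Hochberg adjustment over 14796 genes. A gene is called at an adjusted p under 0.05. Named genes are Polr1a, called genes other than gene models and pseudogenes, up to 10 genes in each direction at adjusted p of 0.05 to 0.10, and, for each list, up to 8 members of smallest p or every member of short lists, plus members a role needs. Some genes that meet this rule are not reported here, though they stay in the counts, sums and medians. Members, lists and rules were chosen with earlier results of these data known. A list's median stands beside that of all genes, and no set test was run. Summed levels are sums of back-transformed values. Transcript copies were aligned with BLAST+ 2.17.0 against GENCODE transcripts of GRCm38. Alternatives were other scalings, filters, pseudocount, variance models, covariates and samples left out.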

Additional observations from a re-analysis of the deposited data

Results flagged for a closer look

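The difference between the null and the missense change passed the threshold for 2 genes, each set against its own wild types. For Dlx1, a homeobox gene of GABAergic development, it was -1.06 (SE 0.126, limma adjusted p = 0.0322), with a null change of -1.38 and a missense change of -0.32. With the columns centred on their medians the Dlx1 value was -1.07 (limma adjusted p = 0.0566). For Rpl34, a ribosomal protein gene, it was 3.29 (SE 0.296, limma adjusted p = 0.00425), with means of 8.50 and 8.03 in wild type and null and of 7.72 and 3.96 in the missense set. With each of the 10 samples left out in turn, the value ranged from -1.16 to -0.97 for Dlx1 and from 3.01 to 3.58 for Rpl34. When a sample of the missense set was left out, Rpl34 passed every time. Dlx1 passed only without that set's wild type 2, so its call depends on single samples. The Rpl34 transcript shares 179 bases at 99.441% identity with the pseudogene Rpl34-ps1, and the part of shared reads was not tested.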

How the results depend on the processing

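The count of 24 called genes became 0 in the fit of the 4 samples alone (with 1101 at an unadjusted p under 0.05 in limma), 59 against all 5 wild types (20 of them among the 24) and 6 without the variance trend (5 shared). It was 18 to 32 under median centring, quantile normalisation, a filter on low levels, a pseudocount of 1, robust variances, sample weights and a Y-linked covariate, and 20 without gene models, pseudogenes and ribosomal protein genes, an alternative chosen after seeing the data. Leaving out 1 sample gave 2 to 23 calls. A group left with 1 sample is assumed to vary like the others. The 2 genes of the difference between mutants became 1 under median centring, 0 without the trend, 4 with the Y-linked covariate, 1 without gene models and ribosomal protein genes, and 1 to 10 with 1 sample left out, 10 without wild type 2 of the missense set. The filter on gene models and ribosomal protein genes itself removed the 3 called gene models and Rpl15 from the main count. It also removed Rpl34 from the difference between mutants. The cause of the other shifts was not tested. The Polr1a difference ranged from -0.56 to -0.39 with 1 sample left out and passed under no alternative, and neither it nor any of the other 39 genes refitted (the 21 called and 18 of adjusted p from 0.05 to 0.10) turned its direction. Of the list medians, those of the Y-linked genes and of the eye field and hypothalamus changed sign (the latter to 0.17 with low genes left out, with -0.40 after quantile normalisation and -0.12 with a pseudocount of 1), as did 12 lists with medians within 0.15 of 0. Over these 40 genes and all alternatives, 624 values of the null difference stayed on their side of the threshold, 181 no longer passed and 33 newly passed. Nr6a1 missed the threshold under median centring (0.0574), sample weights (0.0575), the Y-linked covariate (0.0608), quantile normalisation (0.0927), no trend (0.121), the fit of the 4 samples alone (0.438) and each of the 10 fits that left out 1 sample (0.0594 to 0.234), all limma adjusted p. No paired analysis was possible because null and wild-type samples share no replicate numbers in the labels. Depth is unknown, so low levels cannot be given a limit.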

Other observations

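Single members of the eye field and hypothalamus and immediate early lists lay apart from the rest. Foxb1, a hypothalamic forkhead factor, was at 2.0 and 1.58 in the wild types and at 2.99 and 3.77 in the null samples (difference 1.59, limma adjusted p = 0.293), and Mitf, of the retinal pigment epithelium, at 1.33 and 0.64 against 1.86 and 2.15 (limma adjusted p = 0.502). Among immediate early genes Nr4a1 was at 0.97 and -0.66 against 1.90 and 2.13 (limma adjusted p = 0.412) and Npas4, of active neurons, at 1.36 and 0.39 against -0.31 and -1.35 (limma adjusted p = 0.581). Crabp1, which binds retinoic acid in the cell, had a difference of 0.52 (limma adjusted p = 0.755).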
